A study of Mus musculus with 7 samples.

Results

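The genes described here encode 10 proteins of the stress-activated MAP kinase and NF-kB pathways, which lie downstream of the kinase TAK1. They are the MAP2 kinases Map2k3, Map2k6, Map2k4 and Map2k7, the MAP kinases Mapk14 (p38 alpha), Mapk8 (JNK1) and Mapk9 (JNK2), the IkB kinases Chuk (IKK alpha) and Ikbkb (IKK beta), and Nfkb1, which encodes an NF-kB subunit. They were taken by gene symbol from 42689 mouse genes measured. All 10 had enough counts to be tested, among 16028 features.

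The libraries come from a study of heterotopic ossification, in which bone forms through cartilage in muscle or tendon, and of the part that TAK1 (encoded by Map3k7) plays in it. RNA was sequenced from hindlimb tendon of mice on a C57BL/6 background, in 7 libraries of 3 groups. The tenotomy group (n = 2) was the site of a cut Achilles tendon, 3 weeks after the cut and a burn of the back, made by holding heated aluminium (60 °C) for 18 s against 30% of the body's area. The contralateral group (n = 3) was the uncut tendon from the opposite leg of mice given the same burn and cut, also at 3 weeks. The uninjured group (n = 2) was tendon of wild-type mice with neither burn nor cut. The piece of tissue ran from the end of the gastrocnemius muscle to the heel bone. The labels give no age, name no engineered allele and do not say whether libraries of a group came from separate animals, or whether cut and uncut tendons came from the same ones, so p-values measure the spread between these libraries, which may be technical.

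TAK1 is switched on by receptors for TGF-beta family ligands, tumour necrosis factor and interleukin-1, and phosphorylates MAP2 kinases and the IKK complex. MAP2 kinases are dual-specificity enzymes: Map2k3 and Map2k6 act on p38 kinases, Map2k7 acts on JNK, and Map2k4 acts on JNK and also on p38. The IKK complex marks IkB proteins for degradation, which frees NF-kB dimers to enter the nucleus. These steps are controlled by phosphorylation and protein turnover, which RNA levels do not measure.

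The site that a MAP2 kinase phosphorylates shows how the 3 MAP kinases differ, and is given first for that reason. It is a threonine and a tyrosine with 1 residue between them, a proline in JNK and a glycine in p38. The stretch of 33 bases around it was read from the coding transcript with the most counts of each gene (GENCODE M21, GRCm38), with the 3 codons of the site in capitals. They lie at bases 738 to 746 of the Mapk8 transcript, 818 to 826 of the Mapk9 transcript and 936 to 944 of the Mapk14 transcript, in coding sequences of 384, 423 and 360 codons.
Mapk8: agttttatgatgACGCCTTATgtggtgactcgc
Mapk9: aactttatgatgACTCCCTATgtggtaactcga
Mapk14: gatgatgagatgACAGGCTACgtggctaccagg

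The sequences in front of Map2k3 and Map2k6 are given because these members had the largest differences in RNA level, below. Promoter sequences were those of RefSeq (GRCm38.p6), which held 8 of the 10 genes (not Ikbkb and not Nfkb1). Map2k6 had 3 windows there, and Mapk8, Mapk14, Map2k4 and Map2k7 had 2 each. For each gene only the window nearest the start of its coding transcript with the most counts was used. In each window, from 250 bases before to 50 bases after the start, both strands were searched for CAGCTG (an E-box), TGANTCA, and the NF-kB and MEF2 consensus motifs. TGANTCA, with any base at N, is wider than the AP-1 consensus (TGACTCA or TGAGTCA). The 250 bases before the start are printed, on the plus strand, at chr11:60931804-60932053 for Map2k3 and chr11:110398852-110399101 for Map2k6. Capitals mark the TGANTCA match, whose first base is at -232. It was the only match of any of the 4 motifs in the 8 windows used, and no motifs overlapped. Of 32851 mouse windows of that length, 7.81% held TGANTCA, 16.3% CAGCTG, 4.51% the NF-kB consensus and 3.19% the MEF2 consensus. A match describes letters and shows no binding.
Map2k3: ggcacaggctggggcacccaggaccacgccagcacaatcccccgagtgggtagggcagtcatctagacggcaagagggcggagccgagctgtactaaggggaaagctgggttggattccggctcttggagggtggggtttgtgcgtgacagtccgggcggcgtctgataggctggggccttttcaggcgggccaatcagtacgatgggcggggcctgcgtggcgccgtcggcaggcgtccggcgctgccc
Map2k6: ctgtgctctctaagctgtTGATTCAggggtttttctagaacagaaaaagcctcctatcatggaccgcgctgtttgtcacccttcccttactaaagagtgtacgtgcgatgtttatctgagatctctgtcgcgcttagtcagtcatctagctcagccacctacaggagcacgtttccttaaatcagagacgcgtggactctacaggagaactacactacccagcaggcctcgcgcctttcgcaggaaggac

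Several facts of the libraries bear on all values below. Totals ran from 25927171 to 36725106 estimated counts, and 5 features (Gm42418, Lars2, Mir6236, mt-Rnr2 and a transcript with no match in the annotation) took between 76.41% and 81.4% of them, which left 4934057 to 8375626 counts for everything else. The 10 genes had between 27 and 371 counts per library. The library labelled uninjured replicate 1 lay near the tenotomy libraries. The library labelled uninjured replicate 2 was nearer the contralateral mean for 7 of the 10 genes, but not close to it in the tendon and fibroblast markers below. Each comparison with the uninjured group is therefore given with and without these libraries. The labels do not tell whether a library was exchanged, and groups are used as labelled. Summed CPM (counts scaled to a common library total) over 20 skeletal muscle markers was 25194 to 28116 in contralateral, 2230 to 2245 in tenotomy, 2831 in uninjured replicate 1 and 19050 in uninjured replicate 2, with all 20 detected in every library. Over 12 tendon and fibroblast markers it was 1195 to 1586, 7042 to 7047, 6443 and 4524, in the same order. Over 13 macrophage and leukocyte markers it was 32.4 to 42.4, 160.1 to 163.3, 160.8 and 41.3, and over 11 chondrocyte markers 32.7 to 58.4, 434.1 to 434.6, 222.7 and 53.0. In bulk tissue, fewer cells of a type and less RNA per cell cannot be told apart, and the part of these cell types in the differences below was not tested.

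The first comparison, of the cut tendon with the uncut tendon of the opposite limb, addresses how the injured site differs within mice that had the same injuries. At the tenotomy site RNA of the 4 MAP2 kinases was lower and RNA of Nfkb1 was higher than in contralateral tendon. The fall was 4.29-fold for Map2k6, 2.91-fold for Map2k3, 1.64-fold for Map2k7 and 1.62-fold for Map2k4, and the rise of Nfkb1 was 1.47-fold. These 5 of 10 genes passed an adjusted p of 0.05 in edgeR's quasi-likelihood test over all 7 libraries, 4 lower and 1 higher, while 29.0% of the 16028 features passed, 15.4% lower and 13.6% higher. In 7 genes both tenotomy libraries lay below all contralateral libraries and in 2 both lay above, against 31.8% and 31.9% of all features (63.7% in either direction). The median log2 fold change was -0.47 over the 10 genes and 0.00 over all features.

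**Figure D1:**
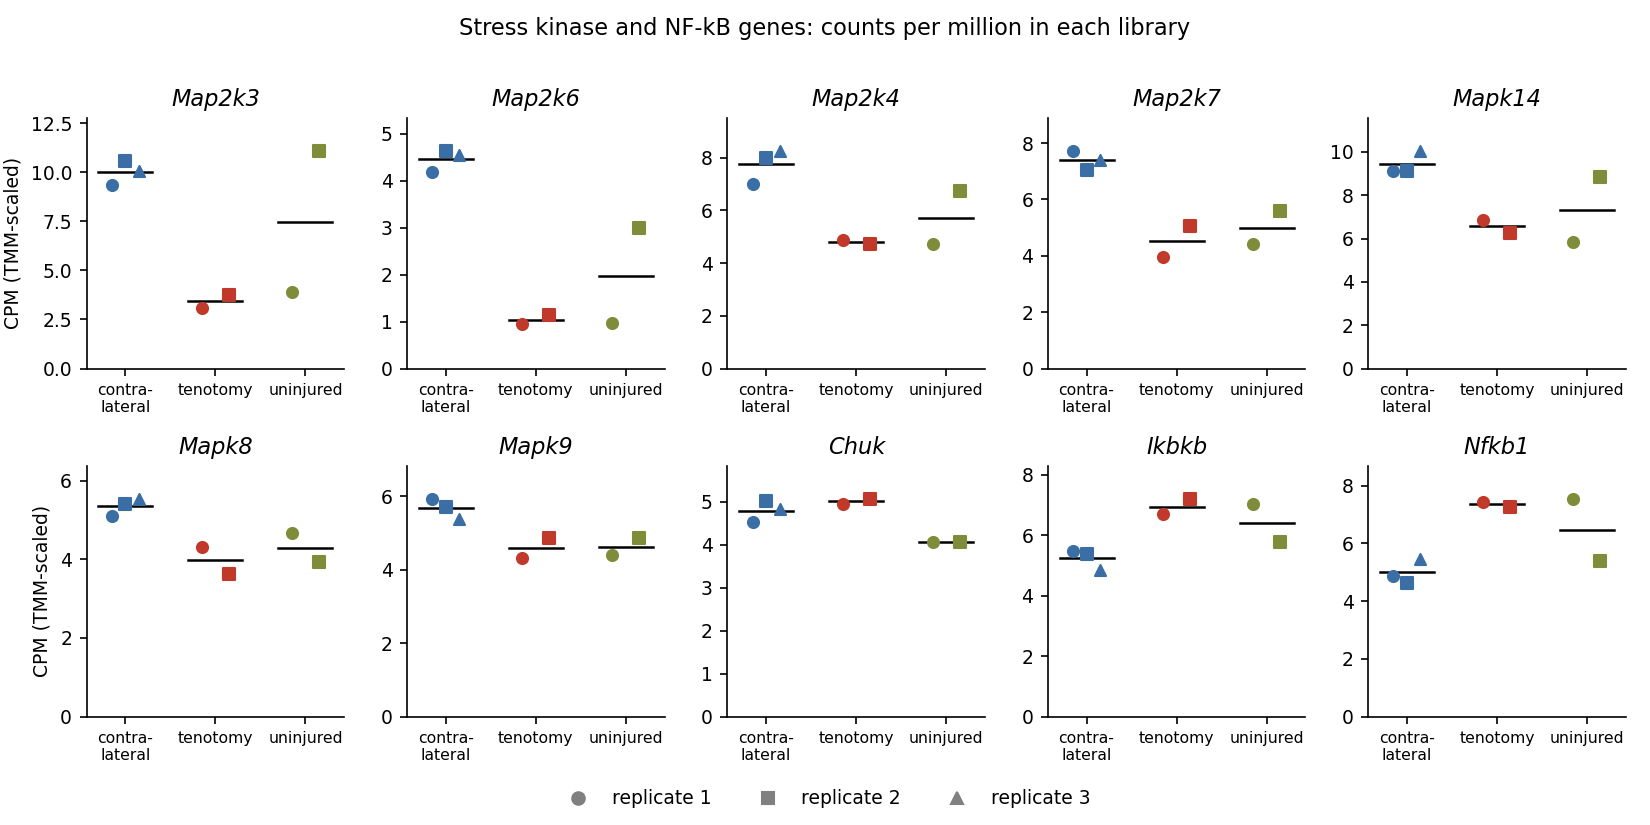
TMM-scaled CPM (y axis, starting at 0) of each of the 10 genes in the 7 libraries, by group (x axis), with symbols for replicates and a bar at each group mean. The tenotomy points lie below all contralateral points for 7 genes, overlap them for Chuk and lie above them for Ikbkb and Nfkb1, while the uninjured points of Map2k3 lie at 3.88 and 11.1.

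Map2k6 (chr11:110399122-110525522, plus strand, ENSMUSG00000020623.11), a p38-activating kinase, had 4.20, 4.64 and 4.55 CPM in contralateral replicates 1 to 3, 0.952 and 1.13 in tenotomy replicates 1 and 2, and 0.970 and 2.99 in uninjured replicates 1 and 2. Both tenotomy libraries and uninjured replicate 1 held about the same low level, and uninjured replicate 2 stood between them and the contralateral libraries. The group means were 4.46 ± 0.232 (SD, n = 3) in contralateral and 1.04 ± 0.128 (SD, n = 2) in tenotomy. The log2 ratio was -2.10 (SE 0.41, edgeR adjusted p = 0.0167), from 112 to 163 counts in each contralateral library against 34 and 35 in tenotomy.

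Map2k3 (chr11:60932033-60952811, plus strand, ENSMUSG00000018932.9), the other p38-activating kinase, had 9.33, 10.6 and 10.1 CPM in contralateral, 3.10 and 3.77 in tenotomy, and 3.88 and 11.1 in uninjured libraries. The contralateral and tenotomy libraries were far apart, and the uninjured libraries fell on either side, one just above the tenotomy values and the other above every contralateral value. Means were 9.99 ± 0.618 (SD, n = 3) and 3.43 ± 0.471 (SD, n = 2) CPM in contralateral and tenotomy, and the log2 fold change was -1.54 (SE 0.40, edgeR adjusted p = 0.0265). The uninjured mean of 7.48 ± 5.09 (SD, n = 2) CPM describes neither of its libraries.

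Map2k7 (chr8:4238740-4247897, plus strand, ENSMUSG00000002948.19), the JNK-specific kinase, had 7.72, 7.06 and 7.39 CPM in contralateral, 3.97 and 5.07 in tenotomy, and 4.42 and 5.57 in uninjured libraries. Tenotomy and uninjured libraries were interleaved, all below the contralateral ones. The means were 7.39 ± 0.332 (SD, n = 3) and 4.52 ± 0.775 (SD, n = 2) CPM in contralateral and tenotomy, a log2 ratio of -0.71 (SE 0.17, edgeR adjusted p = 0.0224).

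Map2k4 (chr11:65688243-65788297, minus strand, ENSMUSG00000033352.11), which acts on JNK and p38, had 7.01, 8.0 and 8.26 CPM in contralateral, 4.87 and 4.73 in tenotomy, and 4.71 and 6.74 in uninjured libraries. Tenotomy and uninjured replicate 1 formed a low set and uninjured replicate 2 stood just under the contralateral libraries. The means were 7.75 ± 0.659 (SD, n = 3) and 4.80 ± 0.096 (SD, n = 2) CPM in contralateral and tenotomy, a log2 ratio of -0.69 (SE 0.18, edgeR adjusted p = 0.0295).

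The MAP kinases among the 10 genes differed less, and none of them passed the threshold. The p38 kinase gene Mapk12, outside the 10, did pass and is given below. Mapk14 (chr17:28691329-28748406, plus strand), the main p38 gene, had 9.14, 9.11 and 10.1 CPM in contralateral, 6.85 and 6.27 in tenotomy, and 5.82 and 8.84 in uninjured libraries. Its tenotomy values lay below all contralateral values, with a log2 fold change of -0.52 (95% interval -0.98 to -0.07, edgeR adjusted p = 0.0801). Mapk8 (chr14:33377898-33447158, minus strand), encoding JNK1, had 5.10, 5.41 and 5.54 CPM in contralateral, 4.32 and 3.63 in tenotomy, and 4.67 and 3.92 in uninjured libraries. All 4 other libraries lay below the contralateral ones, and the tenotomy difference was -0.42 on the log2 scale (95% interval -0.78 to -0.07, edgeR adjusted p = 0.0705). Mapk9 (chr11:49846751-49886421, plus strand), encoding JNK2, had 5.92, 5.69 and 5.38 CPM in contralateral, 4.32 and 4.87 in tenotomy, and 4.38 and 4.85 in uninjured libraries. Here too contralateral values were the highest, and the log2 fold change was -0.30 (95% interval -0.62 to 0.02, edgeR adjusted p = 0.134).

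The catalytic IKK subunits had different values. Ikbkb (chr8:22659212-22706589, minus strand), the kinase of the canonical NF-kB pathway, had 5.47, 5.38 and 4.86 CPM in contralateral, 6.69 and 7.20 in tenotomy, and 7.04 and 5.78 in uninjured libraries. Contralateral libraries were the lowest, and the log2 fold change in tenotomy was 0.41 (95% interval 0.07 to 0.75, edgeR adjusted p = 0.0724). Chuk (chr19:44073335-44107480, minus strand), the IKK subunit that the noncanonical pathway needs, had 4.53, 5.01 and 4.82 CPM in contralateral, 4.95 and 5.07 in tenotomy, and 4.06 in both uninjured libraries. Tenotomy overlapped contralateral, and its log2 fold change of 0.06 had a 95% interval of -0.23 to 0.36 (edgeR adjusted p = 0.744).

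Nfkb1 (chr3:135584655-135691547, minus strand, ENSMUSG00000028163.17), which encodes p105 and its processed form p50, had 4.87, 4.64 and 5.47 CPM in contralateral, 7.45 and 7.27 in tenotomy, and 7.55 and 5.40 in uninjured libraries. Both tenotomy libraries and uninjured replicate 1 were high, and uninjured replicate 2 lay within the contralateral range. The means were 5.00 ± 0.431 (SD, n = 3) and 7.36 ± 0.132 (SD, n = 2) CPM in contralateral and tenotomy, a log2 ratio of 0.56 (SE 0.17, edgeR adjusted p = 0.0476). DESeq2, which called 4 of the 10 genes and 23.4% of features, put the adjusted p of Nfkb1 at 0.100. Without a filter for low counts it was 0.069 in edgeR.

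The calls depend on which libraries share the estimate of spread. Leaving out 1 contralateral or 1 tenotomy library from the fit of all groups left no gene with an adjusted p under 0.05, among the 10 or among all features. Leaving out either uninjured library raised the number of the 10 genes called to 8 (42.9% of features passed without replicate 1 and 43.5% without replicate 2), and so did fitting only tenotomy and contralateral libraries: Mapk8 (adjusted p = 0.0133), Mapk14 (0.0013) and Ikbkb (0.0113) joined the 5, with Mapk9 at 0.0523, and 46.1% of features passed. In that smaller fit, leaving out each library in turn called between 6 and 9 of the 10 genes, 6 without tenotomy replicate 2, when 33.0% of features passed, and 9 without contralateral replicate 3, when 44.8% did. In the fit of all groups, upper quartile scaling added Ikbkb to the calls (29.9% of features). A term for the series of the title numbers, described below, sets only tenotomy replicate 1 against the contralateral libraries here. With it Mapk14 was at -0.46 on the log2 scale, against -0.52 without it.

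**Figure D2:**
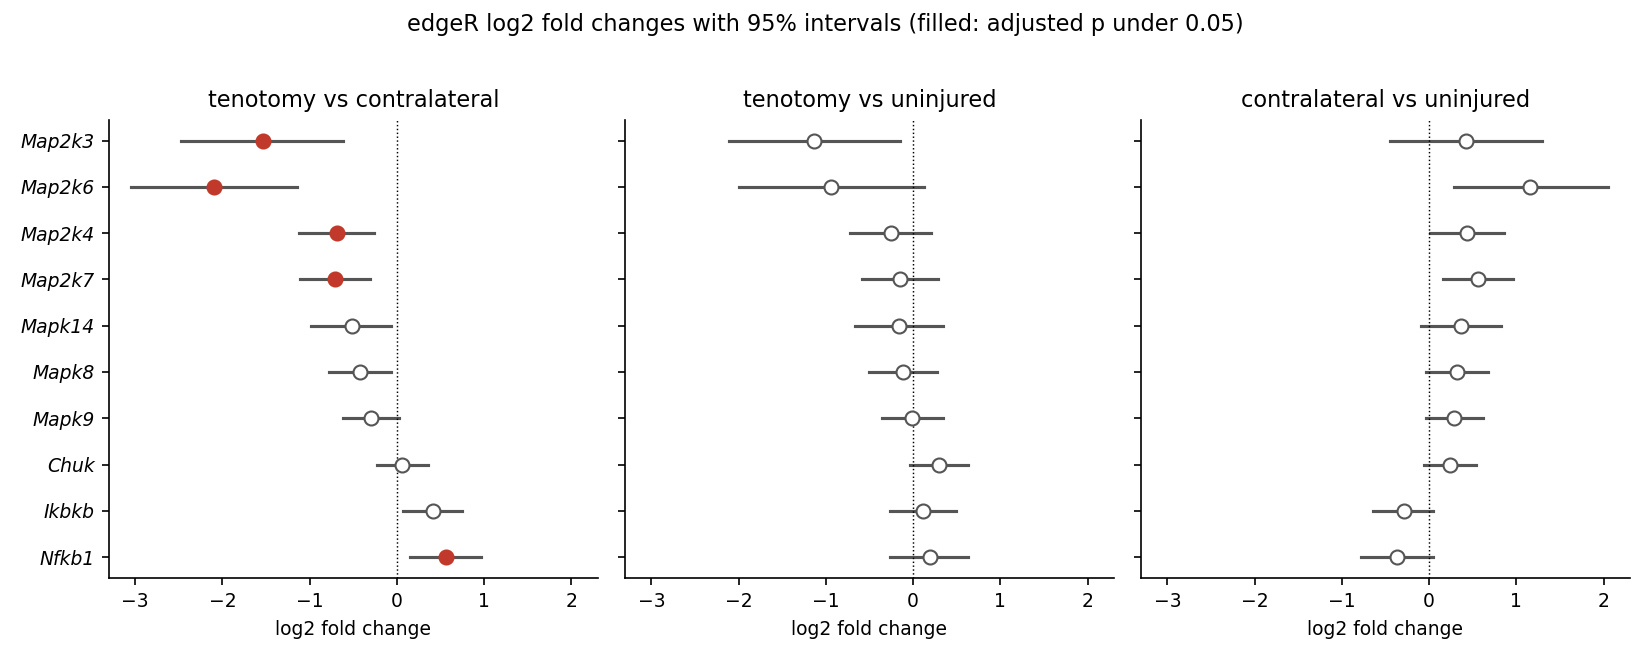
Log2 fold changes (x axis) of the 10 genes (rows) from the edgeR fit of all 7 libraries, with 95% intervals as bars and filled points for an adjusted p under 0.05, in the 3 comparisons. Filled points are in the tenotomy against contralateral panel, at -2.10 for Map2k6, -1.54 for Map2k3, -0.71 for Map2k7, -0.69 for Map2k4 and 0.56 for Nfkb1.

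The second comparison, of the cut tendon with tendon of mice never injured, gave no call among the 10 genes, and 0% of the 16028 features passed in edgeR. At an unadjusted p under 0.05 there were 1741 features and 1 of the 10 genes, Map2k3, with a log2 ratio of -1.13 (SE 0.42, edgeR adjusted p = 0.450). DESeq2 called 55 features (0.343%) and 0 of the 10 genes. Map2k3 was lower in both tenotomy libraries than in either uninjured one, as were 20.4% of features, and Chuk was higher, as were 20.1%. The other 8 genes overlapped, while 40.5% of all features did not. Map2k6, at -0.94 (95% interval -1.99 to 0.12), and Chuk, at 0.30 (-0.03 to 0.63), had the next largest log2 differences. The other 7 lay between -0.25 for Map2k4 and 0.19 for Nfkb1, with intervals that reach no farther than -0.72 and 0.63.

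That result rests on how the uninjured libraries are combined. Without uninjured replicate 1, edgeR called 3 of the 10 genes lower at the tenotomy site, when 25.1% of features passed. These were Map2k3 at -1.69 (adjusted p = 1.24e-05), Map2k6 at -1.52 (adjusted p = 0.000307) and Map2k4 at -0.48 (adjusted p = 0.041), on the log2 scale. Mapk14 at -0.42 (adjusted p = 0.0505) and Nfkb1 at 0.45 (adjusted p = 0.0543) were close to the threshold. Without uninjured replicate 2, none of the 10 passed, 0.0830% of features did, and Map2k3 was at -0.18 and Map2k6 at 0.10.

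The third comparison, of uncut tendon in injured mice with tendon in mice never injured, concerns the limb that was not operated on. Again none of the 10 genes and 0% of features passed in edgeR, with 3 of the 10 genes and 3084 features at an unadjusted p under 0.05, and with 142 features (0.886%) and 0 of the 10 genes called by DESeq2. Those 3 genes were Map2k6 at 1.16 (95% interval 0.28 to 2.05, edgeR adjusted p = 0.221), Map2k7 at 0.56 (0.16 to 0.96, adjusted p = 0.215) and Map2k4 at 0.44 (0.01 to 0.86, adjusted p = 0.254), all higher in contralateral. Contralateral libraries lay wholly above the uninjured ones for Mapk8, Mapk9, Mapk14, Map2k4, Map2k6, Map2k7 and Chuk, and wholly below for Ikbkb, 7 and 1 of 10 against 18.9% and 16.6% of features (35.5% in either direction). Map2k3, at 0.42 (-0.45 to 1.29), and Nfkb1, at -0.37 (-0.78 to 0.04), overlapped.

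Here too the labelled pair of libraries pulled in different directions. Without uninjured replicate 2, 7 of the 10 genes passed in edgeR, when 32.0% of features did. Higher in contralateral were Map2k6 (2.20), Map2k3 (1.37), Map2k7 (0.74), Map2k4 (0.73) and Mapk14 (0.70), and lower were Nfkb1 (-0.59) and Ikbkb (-0.43), all as log2 fold changes. Without uninjured replicate 1 none passed, 0.617% of features did, and Map2k3 turned to -0.15 with Map2k6 at 0.58. Uninjured replicate 1 was nearer the tenotomy mean than the contralateral mean for 8 of the 10 genes, all but Mapk8 and Chuk, and uninjured replicate 2 was nearer the contralateral mean for 7 of 10.

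**Figure D3:**
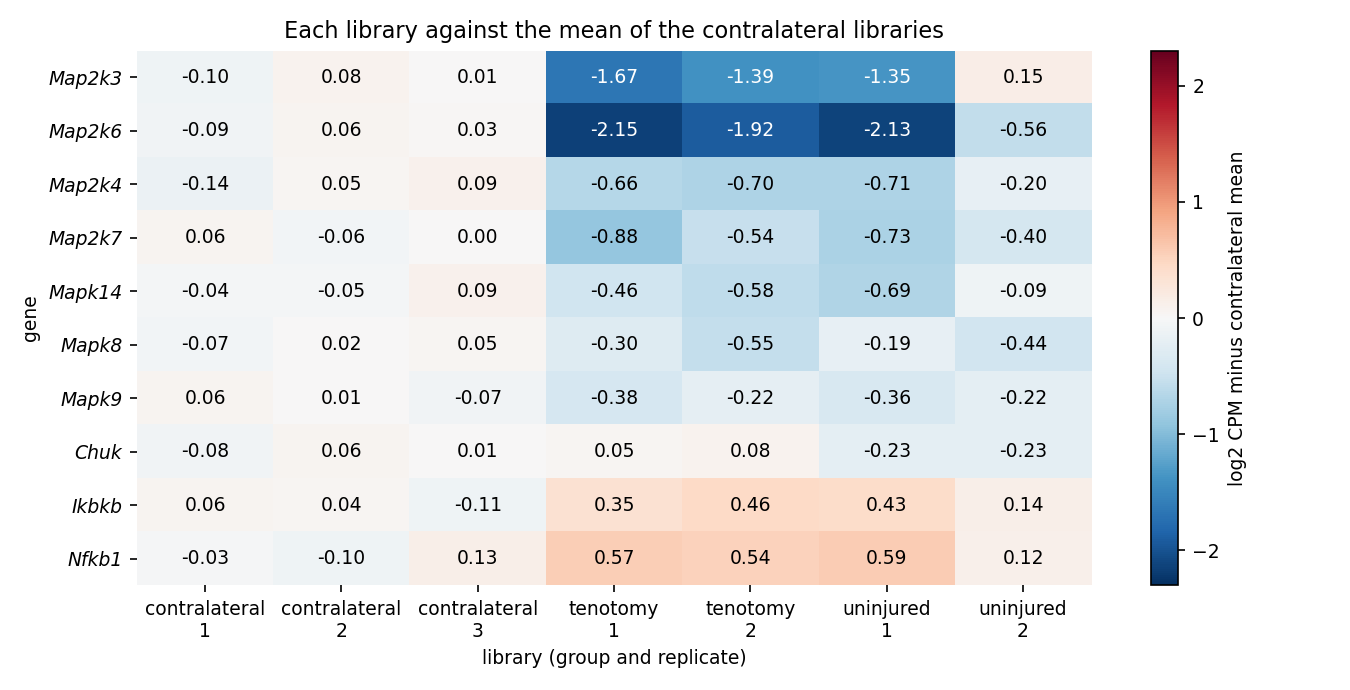
Log2 CPM of each of the 10 genes (rows) in each library (columns) minus the mean of the 3 contralateral libraries, with blue for lower and red for higher values. The column of uninjured replicate 1 resembles the tenotomy columns, with -1.35 for Map2k3 and -2.13 for Map2k6, while uninjured replicate 2 has 0.15 and -0.56.

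The numbers in the sample titles fall in 3 series, which no label calls a batch: the contralateral libraries with tenotomy replicate 1, tenotomy replicate 2 with uninjured replicate 1, and uninjured replicate 2 alone. Within the first series, tenotomy replicate 1 differed from the contralateral mean by -2.15 for Map2k6, -1.67 for Map2k3, -0.88 for Map2k7, -0.66 for Map2k4 and 0.57 for Nfkb1 on the log2 CPM scale. Within the next, tenotomy replicate 2 differed from uninjured replicate 1 by 0.21, -0.04, 0.19, 0.01 and -0.05 for the same genes. The largest gaps there were -0.36 for Mapk8 and 0.31 for Chuk. These are single libraries, without a test. A series term in the edgeR fit leaves uninjured replicate 2, alone in its series, without weight in the comparisons. It sets contralateral against uninjured replicate 1 by way of tenotomy replicates 1 and 2. The spread then comes from the contralateral libraries alone, so the calls that follow rest on single libraries of the other groups. With the series as a term in the edgeR fit, 3 of the 10 genes passed between contralateral and uninjured (Map2k3, Map2k6 and Map2k7, 15.4% of features) and none between tenotomy and uninjured (0.0250% of features).

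Levels can be set between genes only per length, for which the deposited TPM were summed over the transcripts of each gene. All 10 were low on this scale, at no more than 0.991 TPM in any library. In contralateral libraries the mean TPM ran from 0.900 ± 0.103 (SD, n = 3) for Map2k3 and 0.670 ± 0.121 for Map2k4 through 0.575 ± 0.077 for Mapk14, 0.558 ± 0.144 for Chuk, 0.385 ± 0.055 for Map2k6, 0.365 ± 0.065 for Map2k7, 0.349 ± 0.069 for Mapk8, 0.299 ± 0.094 for Ikbkb and 0.296 ± 0.063 for Mapk9 to 0.263 ± 0.017 for Nfkb1. Map2k3 stood above the second gene by more than their SDs, and every later pair of neighbours differed by less than the larger of their SDs except Chuk and Map2k6.

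At the tenotomy site the order of TPM was different. Chuk, at 0.558 ± 0.070 (SD, n = 2), and Mapk14, at 0.552 ± 0.051, led, and were closer than their SDs. In these 2 libraries 85.17% and 77.60% of the TPM of Chuk, and 34.24% and 38.10% of that of Mapk14, were on transcripts not annotated as protein-coding, so the first rank of Chuk is not one of coding RNA. Nfkb1 stood at 0.408 ± 0.012, Map2k4 at 0.376 ± 0.037, Ikbkb at 0.369 ± 0.074 and Map2k3 at 0.321 ± 0.039. Mapk8 (0.251 ± 0.037), Mapk9 (0.243 ± 0.063) and Map2k7 (0.210 ± 0.072) were lower, and Map2k6 was last at 0.093 ± 0.017. In summed TPM, Nfkb1 was thus the lowest of the 10 in contralateral tendon and the third at the cut site, and Map2k3 went from first to sixth. These are not ranks of coding RNA. At the cut site 44.36% and 44.75% of the TPM of Nfkb1 were on transcripts not annotated as protein-coding. Its gaps to Mapk9 in contralateral tendon and to Map2k4 at the cut site were also smaller than the larger of their SDs.

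In the uninjured libraries the TPM of Map2k3 was 0.496 and 0.991 and that of Map2k6 was 0.087 and 0.247, so a mean hides the gap. Map2k4 (0.604 and 0.570), Chuk (0.544 and 0.605), Mapk14 (0.575 and 0.549), Nfkb1 (0.557 and 0.438) and Ikbkb (0.486 and 0.395) were closer together. Map2k7 had 0.236 and 0.275, Mapk8 0.270 and 0.217, and Mapk9 0.331 and 0.216. TPM depends on how reads were divided among transcripts of different length. For Mapk14 the contralateral and tenotomy means were almost equal in TPM, and length-scaled TPM put the log2 fold change at -0.005 (edgeR adjusted p = 0.987), against -0.52 in counts.

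The division among transcripts bears on which RNA was measured, since a total RNA library can hold unspliced or partly spliced RNA. Map2k3 has 6 annotated transcripts, 1 of them protein-coding, and Map2k3-201 held 87.25% of its counts over all libraries. Map2k6-201 held 87.92%, Map2k4-201 82.7% and Map2k7-202 71.4% of the counts of their genes. Mapk14 counts were split between the coding transcripts Mapk14-202 (40.12%) and Mapk14-203 (38.42%), and the leading transcripts of the JNK genes were Mapk8-205 (49.33%) and Mapk9-201 (53.73%).

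In Ikbkb and Chuk much of what was counted lay outside coding transcripts. That part holds nonsense-mediated decay or processed transcripts as well as retained introns, so it is not all partly spliced RNA. Transcripts not annotated as protein-coding took between 56.29% and 82.59% of the counts of Ikbkb, 37.40% to 55.30% of those of Chuk and 18.69% to 39.70% of those of Nfkb1. The shares of Mapk8 (15.21% to 29.75%), Map2k3 (9.14% to 34.51%), Map2k4 (6.54% to 24.98%) and Mapk9 (7.81% to 22.05%) overlapped those of Nfkb1, while those of Map2k6 (4.44% to 14.00%), Mapk14 (2.09% to 6.87%) and Map2k7 (0% to 3.47%) were below them. Among Ikbkb transcripts, Ikbkb-211, a retained intron, held 23.84% of counts beside 25.06% for the coding Ikbkb-201, and in Chuk the retained intron Chuk-207 held 25.99% beside 47.35% for Chuk-201. The share outside coding transcripts differed between libraries of 1 group, as in Ikbkb, where it was 82.59%, 59.23% and 56.29% in contralateral replicates 1 to 3. In replicate 1 it included 20.1% on Ikbkb-203 and 11.6% on Ikbkb-208, both nonsense-mediated decay transcripts.

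**Figure D4:**
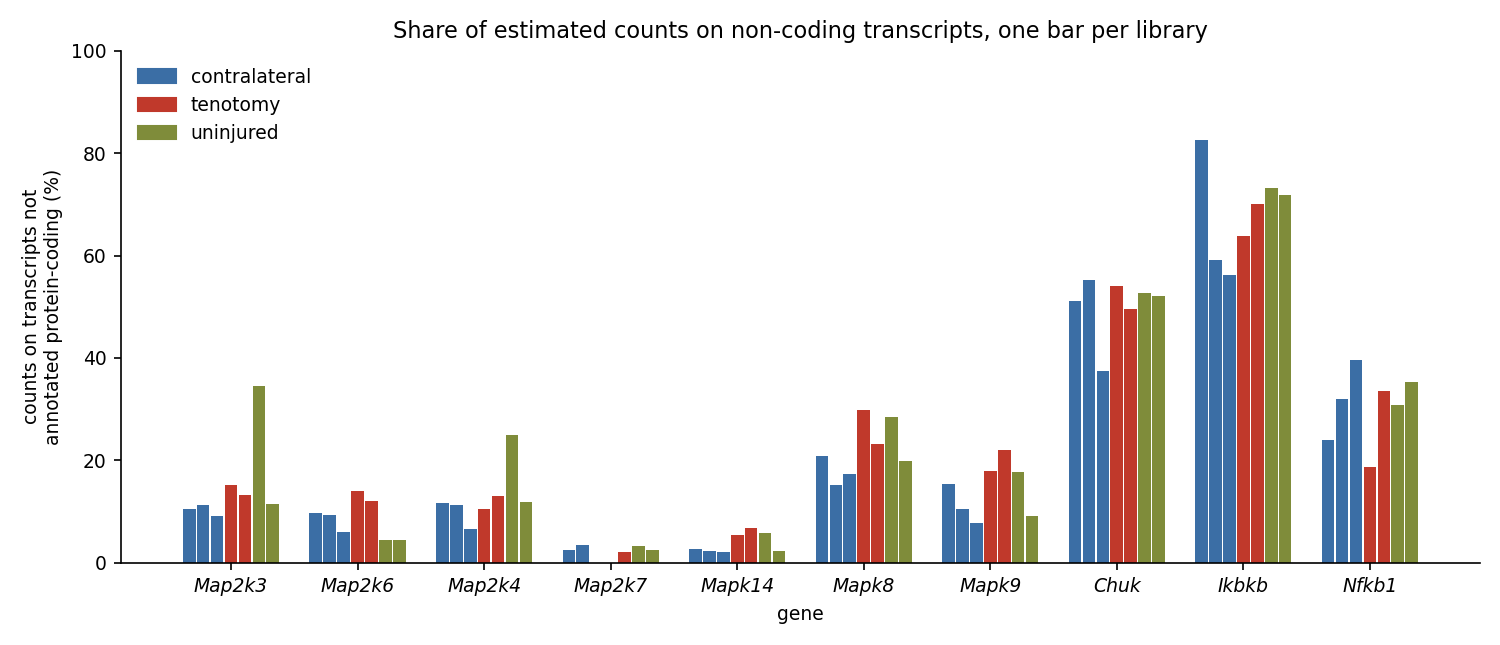
Share of each gene's estimated counts (y axis, percent) on transcripts not annotated as protein-coding, with 1 bar per library coloured by group and in replicate order, for the 10 genes (x axis). Ikbkb bars lie between 56.29% and 82.59% and Map2k7 bars between 0% and 3.47%.

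With protein-coding transcripts alone, 5 of the 10 genes passed in edgeR between tenotomy and contralateral, when 27.2% of features did, but they were not the same 5. Mapk8 entered with a log2 fold change of -0.57 (adjusted p = 0.0306) and Map2k4 left with -0.71 (adjusted p = 0.0572). Nfkb1 had 98.7, 110.7 and 106.8 coding counts in contralateral, 222.8 and 144.8 in tenotomy and 145.2 and 101.4 in uninjured libraries, with a log2 fold change of 0.71 (adjusted p = 0.0462). Ikbkb had 25.5, 77.1 and 68.5 coding counts in contralateral and 89.1 and 64.5 in tenotomy, which overlap, and its log2 fold change was 0.39 (adjusted p = 0.405). Chuk turned from 0.06 to -0.02.

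Other genes of the pathway were grouped by role. In 11 lists with 128 genes, 118 were tested between tenotomy and contralateral, and edgeR called 25 higher and 21 lower, where 13.6% and 15.4% of all features passed. In edgeR none of the 118 passed between tenotomy and uninjured (14 at an unadjusted p under 0.05, and 1 called by DESeq2) or between contralateral and uninjured (27, and 1 by DESeq2).

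Of the 4 genes of the TAK1 complex, 2 fell and the other 2 did not pass. Map3k7, the kinase itself, fell by 0.56 on the log2 scale (edgeR adjusted p = 0.0342) and Tab3, a ubiquitin-binding partner, by 0.62 (adjusted p = 0.0266), while Tab1 was at -0.48 (0.165) and Tab2 at -0.42 (0.0764). Of 3 tested genes among the other JNK and p38 kinases, 1 fell. Mapk12 (p38 gamma, abundant in skeletal muscle) had 5.51, 6.35 and 6.43 CPM in contralateral, 1.99 and 1.80 in tenotomy and 2.41 and 6.06 in uninjured libraries, which is -1.68 on the log2 scale (edgeR adjusted p = 0.0174). As for Map2k3, the uninjured libraries fell on either side.

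Among 15 other MAP3 kinases, 3 rose and 3 fell. Map3k20 (ZAK), a stress-responsive kinase, fell most, with 72.1, 74.0 and 78.3 CPM in contralateral, 14.0 and 14.6 in tenotomy and 15.1 and 47.6 in uninjured libraries (log2 fold change -2.38, edgeR adjusted p = 0.0167). Map3k6 (-0.91) and Map3k5 (-0.64), of the ASK family, also fell, and Map3k2 rose by 0.60. Of 9 genes in the ERK1/2 and ERK5 branch, 1 rose and 2 fell, among them Map2k2 (-0.88), which encodes an ERK-activating kinase. Of 20 upstream adaptors and receptors 4 rose and 1 fell, among them Ripk1 at 0.83 and the TNF receptor gene Tnfrsf1a at 0.73 (higher) and the ubiquitin-conjugating Ube2v1 at -0.84 (lower).

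On the NF-kB side, 2 of 5 subunits and IKK partners rose and none fell, with a list median of 0.51. Rela, which encodes the p65 partner of p50, had 3.00, 2.67 and 2.69 CPM in contralateral, 3.78 and 4.17 in tenotomy and 3.52 and 3.54 in uninjured libraries (log2 fold change 0.51, edgeR adjusted p = 0.0307). The other was Nfkb2 at 0.95 (edgeR adjusted p = 0.0208), which lies below the level set for naming genes and was picked out after its values were seen. Of 9 inhibitors 2 rose and 1, the deubiquitinase gene Cyld, fell (-0.66). Of 12 tested NF-kB target genes (of 18 listed) 4 rose and 1 fell, with a median of 1.23. Bcl2a1b, a survival gene of immune cells picked out after its values were seen, had no counts in the contralateral libraries and 0.354 and 0.267 CPM in tenotomy, which is at least 3.20-fold higher against a floor of 3 counts per library. With it at that bound the median was again 1.23. The adhesion molecule gene Vcam1 rose by 1.78, and Sod2, the mitochondrial superoxide dismutase, had a log2 fold change of -2.19.

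Phosphatases and effectors moved both ways. Of 10 tested MAP kinase phosphatases (of 12), 2 rose and 4 fell, the latter being Dusp10 (-2.10), Ppm1b (-1.97), Ppm1a (-1.13) and Dusp8 (-0.89), all of which remove phosphate from kinases of these pathways. Of 24 JNK and p38 effectors 6 rose and 6 fell. Mef2c, a p38-responsive transcription factor of muscle and cartilage, had 76.4, 79.0 and 81.2 CPM in contralateral, 14.7 and 15.2 in tenotomy and 16.0 and 44.3 in uninjured libraries (log2 fold change -2.40, edgeR adjusted p = 0.0167). The p38 substrate kinase Mapkapk2 (-1.78) and the translation-initiation kinase Mknk2 (-1.65) fell as well. Fosl2, an AP-1 subunit, rose, with 7.20, 7.91 and 6.71 CPM in contralateral, 17.9 and 18.1 in tenotomy and 12.6 and 7.40 in uninjured libraries (log2 fold change 1.31, edgeR adjusted p = 0.0167). Of 7 tested scaffold genes (of 8) 1 rose and none fell.

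Several of these calls were lost under other settings. Length-scaled TPM in place of counts put Dusp8 at -0.18 (edgeR adjusted p = 0.724) and Map3k5 at -0.10 (adjusted p = 0.839), and also ended the calls of Map2k2, Map3k6, Map3k2, Tnfrsf1a, Rela and Cyld. DESeq2 ended those of Dusp8, Map3k5, Map3k2, Tnfrsf1a and Rela (adjusted p between 0.0505 and 0.138). Mapk12, Map3k20, Mef2c, Fosl2 and Sod2 kept theirs under every alternative that left out no library.

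**Figure D5:**
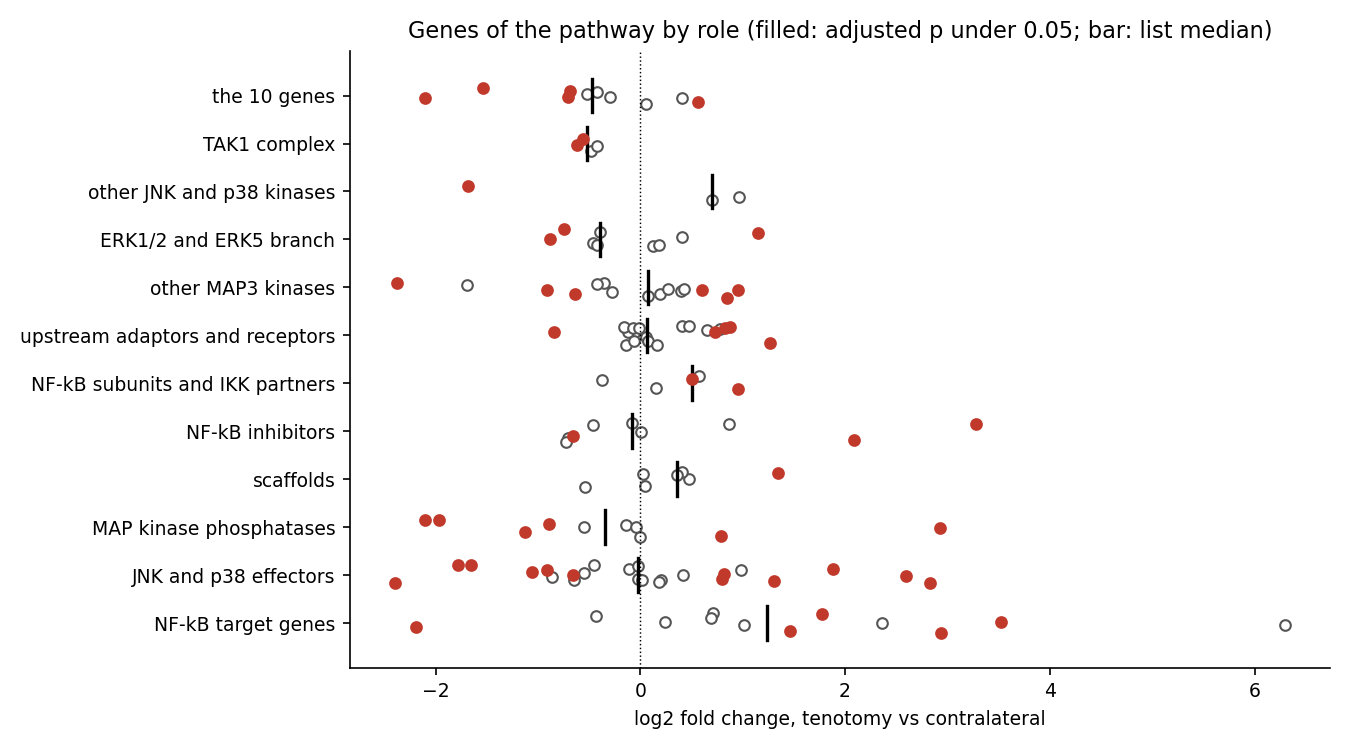
Log2 fold change between tenotomy and contralateral (x axis) of the 10 genes and of the tested genes in 11 other lists of the pathway (rows), with filled points for an edgeR adjusted p under 0.05 and a bar at each list's median. Medians run from -0.52 for the TAK1 complex to 1.23 for NF-kB target genes, and the open point at the far right is Bcl2a1b, whose fitted value depends on the default prior count of the fit.

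The genes whose log2 CPM followed each of the 10 most closely over the 7 libraries are given with Pearson's r as a description, since the libraries of a group share tissue and depth. Map2k6 was closest to Fem1a (0.999) and Ipo5 (0.998), Map2k3 to Usp19 (0.997) and Sort1 (0.996), Map2k4 to Ppm1a (0.999) and Bsg (0.998), and Map2k7 to Eloa (0.995) and Pcf11 (0.985). Mapk14 was closest to Clasp2 (0.994) and Setd7 (0.992), Mapk8 to Smarca4 (0.992) and Ckap5 (0.959), and Mapk9 to St13 (0.994) and Map3k7 (0.976). Nfkb1 was closest to Hjurp (0.996) and Rpph1 (0.990), Ikbkb to Ankfy1 (0.998) and Itm2b (0.994), and Chuk to Sel1l (0.895) and Bdp1 (0.851). The lowest r of the 20 was that of Chuk with Bdp1.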

How the data were processed

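Transcript tables of 7 libraries were used. The submitters' processing notes name FastQC 0.11.4, kallisto and the human build GRCh38, although the transcript IDs are mouse, so the index used is not given in the sources used here. Per the labels' protocols, total RNA was taken with Trizol and a column and made into TruSeq libraries. Each table gives estimated counts and TPM as deposited by the authors, with effective lengths (deposited, in bases). IDs were matched without version to GENCODE M21 (GRCm38): 101510 of 103639 matched, 57625 with the same version, and 2129 were kept as single features. Estimated counts were summed per gene and rounded.

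Features passing filterByExpr (minimum count 10) were TMM-scaled and tested in 1 quasi-likelihood fit of 3 group means with edgeR 4.0.16 (R 4.3.3), with Benjamini-Hochberg adjustment and a threshold of 0.05. Log2 CPM used a prior count of 2, and the fit used the default of edgeR. The SE is the log2 fold change divided by the square root of F. On simulated counts for tenotomy against contralateral (16028 features), 156 of 200 features changed by 2 on the log2 scale were called, with 15 others, and 0 when nothing changed.

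Members and lists were chosen with earlier results of these data known. Genes beside the 10 were named by a rule: the TAK1 complex whatever its values, and up to 4 of each other list with the largest change among those with adjusted p under 0.05, mean log2 CPM of at least 1 and no overlap; a gene the rule takes is not reported here. Likeness took features with a mean log2 CPM of at least 3. Over the lists of markers not given in the report, summed CPM ran, over the 7 libraries, from 57.5 to 76.0 (8 endothelial), 62.2 to 181.0 (7 adipocyte), 71.3 to 240.0 (7 Schwann cell), 44.3 to 69.7 (6 erythroid), 1.91 to 4.81 (8 neutrophil) and 0.882 to 4.28 (7 T and B cell). Alternatives were other scalings, filters, DESeq2 1.42.0, length-scaled TPM, other sets of libraries and a term for the title-number series; protein-coding transcripts alone and leaving out libraries in the fit of 2 groups were added after seeing the data. Replicates were numbered in accession order, which pairs none.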

Additional observations from a re-analysis of the deposited data

How the results depend on the processing

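All values here are counts of genes with an adjusted p under 0.05 or log2 fold changes. No paired analysis was possible because the labels give no replicate numbers or animals that groups share. Between tenotomy and contralateral, the 5 calls among the 10 genes became 8 when only these groups were fitted and 0 to 8 when a library was left out (6 to 9 with only these groups). The 46 calls in the other lists became 70 with only these groups, 28 with length-scaled TPM and 0 to 71 when a library was left out (53 to 72 with only these groups), and the 4643 calls over all features became 7385 with only these groups. Upper quartile scaling moved the median of all features to 0.11 and called 2 of the 10 genes higher and 4 lower. Chuk turned to -0.020 with coding transcripts alone.

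Between tenotomy and uninjured, the 0 calls among the 10 genes became 0 to 3 when a library was left out, and the 0 calls in the other lists became 1 with no filter, 1 with DESeq2 and 0 to 40 when a library was left out. Directions turned under length-scaled TPM for Mapk8 (0.19), Mapk14 (0.10), Ikbkb (-0.13) and Nfkb1 (-0.14). The series term sets only tenotomy replicate 2 against uninjured replicate 1 here. With it, directions turned for Mapk9 (0.15), Mapk14 (0.11), Map2k4 (0.008), Map2k6 (0.22), Map2k7 (0.20) and Nfkb1 (-0.054). Mapk9 was at 0.002 with RLE size factors and with DESeq2 and at 0.026 with upper quartile scaling. Over the fits that left out a library, Mapk8 ran from -0.24 to 0.031, Mapk9 from -0.096 to 0.078, Mapk14 from -0.42 to 0.18, Map2k4 from -0.48 to 0.032, Map2k6 from -1.52 to 0.096, Map2k7 from -0.33 to 0.025, Ikbkb from -0.020 to 0.27 and Nfkb1 from -0.033 to 0.45.

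Between contralateral and uninjured, the 0 calls among the 10 genes became 3 with the series as a term and 0 to 7 when a library was left out. The 0 calls in the other lists became 3 with no filter, 1 with DESeq2, 22 with the series as a term and 0 to 51 when a library was left out. Mapk8 turned to -0.055 with the series as a term. That term links these groups only through tenotomy replicates 1 and 2 and uninjured replicate 1, so its values and calls rest on single libraries. Map2k3 ran from -0.15 to 1.37 when a library was left out. The causes were not tested. Counts of at most 371 per gene and library, and groups of 2 or 3 libraries, limit the precision of all of these.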

Other observations

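Fos, Fosb and Junb, which encode AP-1 subunits, and Ptgs2 were below the level set for naming, and were picked out, as was Jun, after their values were seen. Fos had 0.937, 0.968 and 0.495 CPM in contralateral, 5.17 and 4.50 in tenotomy, and 2.62 and 1.41 in uninjured libraries, a log2 ratio of 2.60 between tenotomy and contralateral (edgeR adjusted p = 0.0167). Fosb (2.83, adjusted p = 0.0167) and Junb (1.88, adjusted p = 0.0236) also rose at the tenotomy site. Jun, the classic JNK substrate, had 8.96, 9.11 and 9.15 CPM in contralateral and 8.57 and 9.30 in tenotomy, which overlap (log2 ratio -0.02, adjusted p = 0.916). Uninjured replicate 1, which lay near tenotomy for Map2k3, Map2k6 and Nfkb1, was between the groups for Fos, and for Fosb it had 0.395 CPM, within the contralateral range of 0.093 to 0.450. Ptgs2, the inducible cyclooxygenase gene and an NF-kB target, had 0.112, 0.341 and 0.124 CPM in contralateral, 2.28 and 2.40 in tenotomy, and 0.503 and 0.103 in uninjured libraries (log2 ratio 3.52, adjusted p = 0.0167). For Fos, Fosb, Junb and Ptgs2 both uninjured libraries were below the tenotomy libraries, as for 20.1% of all features. Between tenotomy and uninjured none passed: the edgeR adjusted p was 0.450 for Fos, Fosb and Ptgs2 and 0.475 for Junb.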
